A study of Danio rerio with 8 samples.

Results

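The enzymes that carry acetyl-CoA through mevalonate to squalene epoxide were followed in livers of zebrafish larvae. The set holds the genes hmgcs1, hmgcra, hmgcrb, mvk, pmvk, mvda, idi1, fdps, fdft1 and sqlea, chosen by their place in the pathway. All 10 were found by symbol, each on 1 row, among 28599 named rows of the deposited count table. Larvae of the transgenic strain lf:YAP, described in the labels as having YAP activated specifically in hepatocytes, were set against WT larvae, with 4 libraries from each. Each library was total RNA from a pool of 10 livers dissected at 7 days of age, from untreated larvae raised in plates from day 3. The labels name neither the promoter nor the yap1 sequence of the transgene, nor a clutch for any pool, so every p-value rests on how far these pools vary, part of which may be technical, and differences between single larvae cannot be seen.

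The mevalonate pathway makes the isoprenoid units from which animals build cholesterol, ubiquinone, dolichol and the lipid anchors of small GTPases, and the liver is one of its main sites. HMG-CoA synthase and HMG-CoA reductase open it, a pair of kinases and a decarboxylase turn mevalonate into isopentenyl diphosphate, and farnesyl diphosphate stands at the branch point. Squalene synthase commits farnesyl diphosphate to sterols, and squalene epoxidase adds the oxygen needed for ring closure. In mammals most of these genes are targets of the transcription factor SREBP2, which is released from the endoplasmic reticulum when sterols are low.

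Counts on named genes ran from 2668432 to 3170508 per library in lf:YAP and from 2853543 to 3797709 in WT. The yap1 transcript averaged 812 ± 439 CPM (counts relative to library size, scaled between libraries by TMM factors) in lf:YAP and 21.2 ± 3.30 CPM in WT (SD, n = 4 each), with no overlap. Hepatocyte markers were abundant in all libraries: the 11 found of 12 listed took 2.44% to 3.06% of counts in lf:YAP and 1.64% to 1.91% in WT. Of those, 2 rose and 2 fell. The riser fabp10a, named after its value was seen, averaged 7893 CPM in lf:YAP and 2698 CPM in WT. Summed as TMM-scaled CPM, the hepatocyte markers overlapped between the groups, with 19220 in lf:YAP replicate 2 and 20070 in WT replicate 3. The 7 biliary markers took 0.254% to 0.686% of counts in lf:YAP and 0.131% to 0.141% in WT, and 6 of the 6 tested rose. The 7 macrophage and leukocyte markers took 0.00133% to 0.00338% in lf:YAP and 0.000666% to 0.000974% in WT, and none was abundant enough to test. These 3 shares did not overlap between the groups (p = 0.0286 by a 2-sided exact permutation test and 0.114 when adjusted over 12 measures of the libraries), and their part in the results was not tested. Of the lf:YAP libraries, replicate 3 was richest in exocrine pancreas markers (1.40% of counts, against 0.387% to 0.451% in the others), and among WT libraries it was replicate 4 (1.17%). Of 10 tested intestine markers 4 fell and none rose, and their share was 0.0375% to 0.0742% in lf:YAP and 0.0394% to 0.134% in WT. Of 6 tested stellate and mesenchymal markers 3 fell and none rose, with shares of 0.0028% to 0.00543% in lf:YAP and 0.00424% to 0.011% in WT. Of 15 tested skeletal muscle markers 2 rose and 2 fell, with shares of 0.0263% to 0.0986% in lf:YAP and 0.0606% to 0.0952% in WT. None of the tested exocrine pancreas, red blood cell and endothelium markers passed. The part of these markers in the results was not tested either. Every other listed marker found was detected in at least 1 library apart from the mesenchymal marker pdgfrb, which was at 0 throughout.

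Of the 6 tested genes of the pathway, 5 were higher in lf:YAP livers, though for fdft1 at the sterol end the groups overlapped. By edgeR's quasi-likelihood test, adjusted over the 8369 genes tested, hmgcs1, hmgcra, idi1, fdps and fdft1 rose, none fell, and hmgcrb did not pass. Of all genes tested, 11.1% rose and 10.5% fell by the same rule. The other 4 genes, mvk, pmvk, mvda and sqlea, were too rare to enter the test. The median log2 fold change of the 6 tested genes was 1.86, beside 0.01 over all genes tested. A filter on low counts decided which genes were tested, and it asked for at least 3.44 CPM before TMM scaling in 4 libraries. The genes hmgcra, hmgcrb and idi1 reached this level in 4 WT libraries, hmgcs1 in 2, fdft1 in 1 and fdps in 0. Thus fdps entered through the lf:YAP libraries alone, and hmgcs1 and fdft1 passed only with lf:YAP libraries, where they were higher. The median and the count that rose therefore rest in part on genes kept because they were high in lf:YAP. With no filter all 10 could be tested and 5 rose, against 6.15% of 22936 genes. Those 5 were hmgcs1, idi1, fdps, fdft1 and sqlea, while hmgcra missed the threshold (adjusted p = 0.0734). The unadjusted edgeR p of hmgcs1 was 5.28e-20 with no filter and 0.0002 in the main test. For hmgcra it was 0.0103 with no filter and 0.00333 in the main test. Calls of the unfiltered fit are therefore not on the same footing as those of the main test. In bulk tissue, fewer cells of a type and less RNA per cell cannot be told apart.

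**Figure D1:**
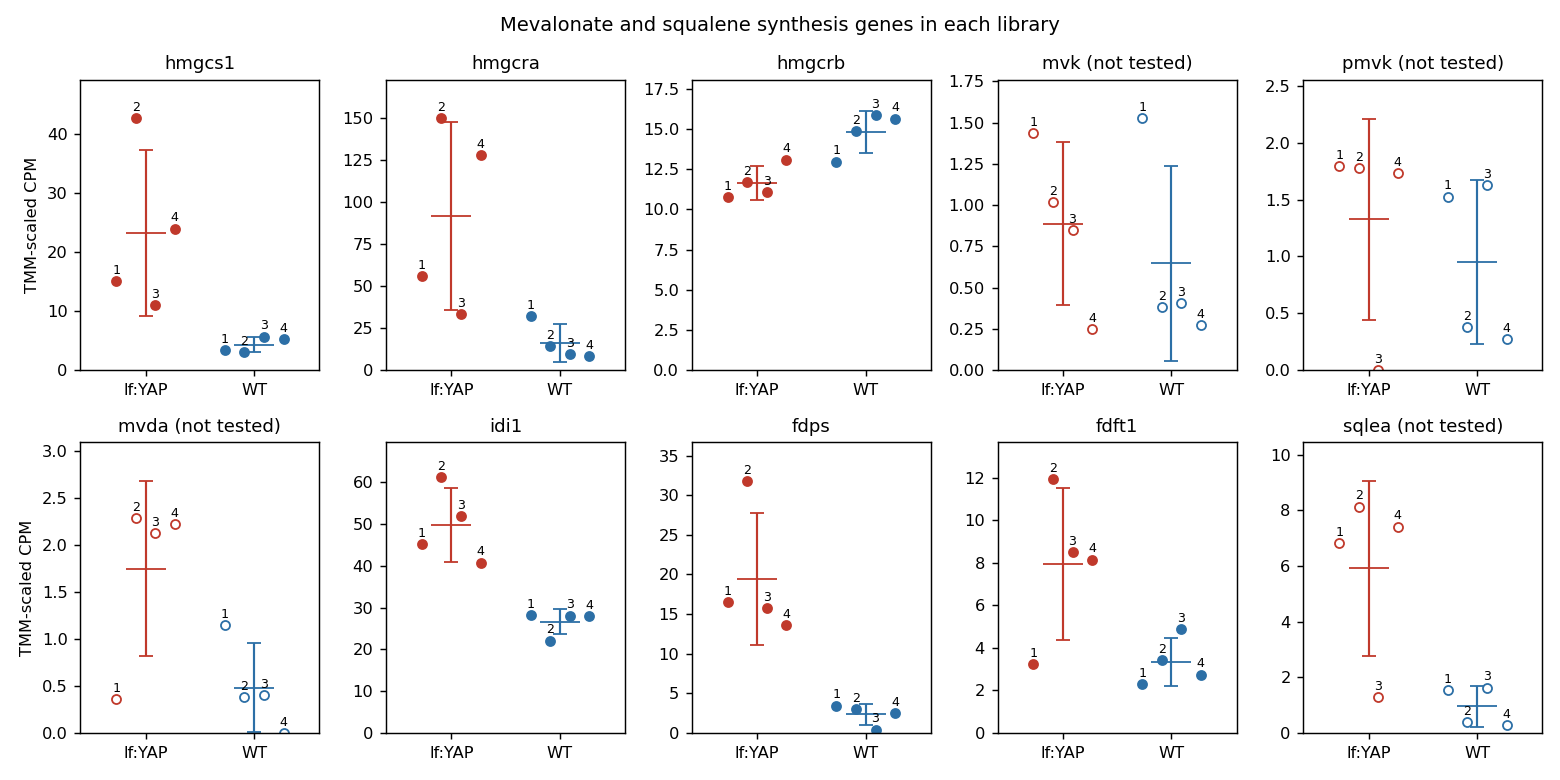
TMM-scaled CPM (vertical axis, linear from 0, a scale for each panel) of the 10 genes in the 4 lf:YAP and 4 WT libraries. Points carry the replicate number, bars show mean ± SD, and open points mark the genes too rare to test. For hmgcs1, hmgcra, idi1 and fdps the lf:YAP points lie above every WT point.

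The entry enzyme, cytosolic HMG-CoA synthase, condenses acetyl-CoA with acetoacetyl-CoA. Its gene hmgcs1 had 15.1, 42.7, 11.1 and 24.0 CPM in lf:YAP replicates 1 to 4, against 3.43, 3.05, 5.69 and 5.22 CPM in WT replicates 1 to 4. The groups did not overlap, as for 12.4% of genes tested in that direction, and lf:YAP replicate 2 stood highest. The log2 fold change was 2.43 ± 0.44 (SE; 95% interval 1.46 to 3.39, adjusted p = 0.00327), or 5.37-fold. It passed under all 18 alternative settings, with adjusted p-values of at most 0.0151 on leaving out a library.

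HMG-CoA reductase, the rate-limiting enzyme of the pathway and the target of statins, is encoded in zebrafish by the paralogs hmgcra and hmgcrb. The hmgcra level was 56.0, 149.9, 33.2 and 128.3 CPM in lf:YAP replicates 1 to 4, against 32.4, 14.5, 9.35 and 8.24 CPM in WT replicates 1 to 4. The groups came close to touching, since WT replicate 1 stood well above the other WT libraries and lf:YAP replicate 3 was low. The log2 fold change was 2.53 ± 0.61 (SE; 95% interval 1.12 to 3.94, adjusted p = 0.0219), or 5.78-fold. This call was lost without lf:YAP replicate 4 (adjusted p = 0.0695), WT replicate 2 (0.0535) or WT replicate 3 (0.0587). The log2 fold change stayed between 2.21 and 3.11 on leaving out any library.

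The paralog hmgcrb did not follow. It had 10.8, 11.7, 11.1 and 13.1 CPM in lf:YAP replicates 1 to 4, against 13.0, 14.9, 15.9 and 15.7 CPM in WT replicates 1 to 4. The groups overlapped only through lf:YAP replicate 4 and WT replicate 1. The log2 fold change was -0.34 ± 0.18 (SE; 95% interval -0.72 to 0.04, adjusted p = 0.187), an interval that excludes a rise of the size seen for hmgcra. With libraries scaled by total counts alone it was -0.03, where the median of all genes lay at 0.31. The spread also differed, as the coefficient of variation of hmgcrb was 8.90% in lf:YAP and 8.86% in WT, against 61.0% in lf:YAP and 69.5% in WT for hmgcra. Without WT replicate 1 the value for hmgcra in WT was 31.2%.

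Within a library the paralogs can be set against each other without any scaling. The share of hmgcra in the summed counts of both was 83.9%, 92.8%, 75.0% and 90.7% in lf:YAP replicates 1 to 4, and 71.4%, 49.4%, 37.1% and 34.5% in WT replicates 1 to 4. The means were 85.6 ± 8.02% in lf:YAP and 48.1 ± 16.9% in WT (SD, n = 4 each), with no overlap. The exact 95% binomial intervals, which cover counting error only, ran from 65.6% to 83.0% in lf:YAP replicate 3 and from 62.4% to 79.3% in WT replicate 1, so those libraries could not be separated at this depth. The log2 ratio of hmgcra over hmgcrb differed by 2.82 (2-sided exact permutation p = 0.0286, the smallest that 4 against 4 libraries allow). Over the 9 gene pairs compared in this way the adjusted p was 0.0643. Reads of near-identical stretches may have been split between the paralogs or left out, and the lengths of the transcripts were not used, so the share is one of counts and not of molecules.

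**Figure D2:**
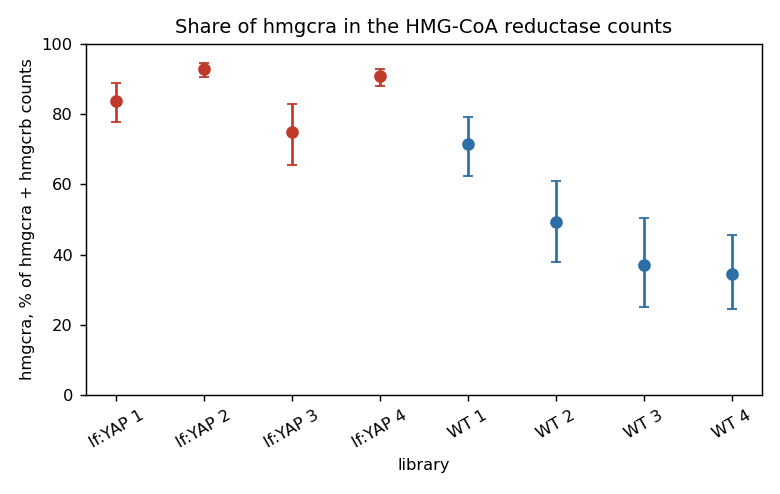
Share of hmgcra (%, vertical axis) in the summed counts of hmgcra and hmgcrb in each lf:YAP and WT library, with exact 95% binomial intervals. The lf:YAP libraries lie at 75.0% or above and the WT libraries at 71.4% or below.

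Mevalonate kinase and phosphomevalonate kinase, the enzymes that phosphorylate mevalonate in turn, were near the limit of detection. The gene mvk had 4, 4, 2 and 1 counts in lf:YAP replicates 1 to 4, against 4, 1, 1 and 1 counts in WT replicates 1 to 4. The gene pmvk had 5, 7, 0 and 7 counts in lf:YAP replicates 1 to 4, against 4, 1, 4 and 1 counts in WT replicates 1 to 4. Both ranges overlapped fully. Summed over a group and scaled to depth, mvk was 1.36 times as high in lf:YAP as in WT (95% counting interval 0.481 to 4.13). The same ratio for pmvk was 1.64 (95% counting interval 0.727 to 3.96). No difference was detectable at this depth in either gene, and with no filter the adjusted p-values were 0.777 for mvk and 0.586 for pmvk.

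The decarboxylase gene mvda, whose enzyme yields isopentenyl diphosphate, was as rare. It had 1, 9, 5 and 9 counts in lf:YAP replicates 1 to 4, against 3, 1, 1 and 0 counts in WT replicates 1 to 4. All lf:YAP libraries but replicate 1 were above WT. The summed counts were 24 in lf:YAP and 5 in WT, which gives a depth-scaled ratio of 4.15 (95% counting interval 1.55 to 13.9). The interval covers counting error only, and with no filter the test across all genes did not pass (adjusted p = 0.0918).

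The isomerase gene idi1, whose enzyme converts isopentenyl diphosphate to the reactive dimethylallyl form, had the narrowest spread of the genes that rose. It had 45.2, 61.2, 51.9 and 40.8 CPM in lf:YAP replicates 1 to 4, against 28.2, 22.1, 28.1 and 28.0 CPM in WT replicates 1 to 4. The groups were clearly apart, with coefficients of variation of 17.9% in lf:YAP and 11.3% in WT. The log2 fold change of 0.90 ± 0.17 (SE; 95% interval 0.53 to 1.27, adjusted p = 0.00275) corresponds to 1.87-fold. It passed under all 18 alternative settings.

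Farnesyl diphosphate synthase, encoded by fdps, joins the isoprenoid units and supplies both sterols and prenyl anchors. Its level was 16.5, 31.8, 15.7 and 13.6 CPM in lf:YAP replicates 1 to 4, against 3.43, 3.05, 0.407 and 2.47 CPM in WT replicates 1 to 4. Every lf:YAP library was above every WT library. The WT values rest on 9, 8, 1 and 9 counts, so the size of the ratio is loosely set. The log2 fold change was 3.02 ± 0.42 (SE; 95% interval 2.11 to 3.94, adjusted p = 0.000542), or 8.13-fold. It passed under all 18 settings and lay between 2.67 and 3.22 on leaving out a library.

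Squalene synthase, encoded by fdft1, condenses farnesyl diphosphate to squalene. It had 3.23, 11.9, 8.51 and 8.15 CPM in lf:YAP replicates 1 to 4, against 2.29, 3.43, 4.88 and 2.75 CPM in WT replicates 1 to 4. The groups overlapped because lf:YAP replicate 1, with 9 counts, lay within the WT range. The log2 fold change was 1.29 ± 0.39 (SE; 95% interval 0.45 to 2.12, adjusted p = 0.0306). Of the 5 pathway genes that rose, this call was lost most often, under 8 of the 18 settings. Its adjusted p was 0.054 by DESeq2, 0.0745 by limma-voom and 0.114 without lf:YAP replicate 2. Leaving out lf:YAP replicate 4 gave 0.0554, WT replicate 1 gave 0.0841, WT replicate 2 gave 0.0702 and WT replicate 4 gave 0.0837.

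Squalene epoxidase, encoded by sqlea, is the other flux-controlling step of sterol synthesis in mammals. It had 19, 32, 3 and 30 counts in lf:YAP replicates 1 to 4, against 4, 1, 4 and 1 counts in WT replicates 1 to 4. Of the lf:YAP libraries only replicate 3 lay within the WT range. The summed counts were 84 in lf:YAP and 10 in WT, which gives a depth-scaled ratio of 7.26 (95% counting interval 3.76 to 15.7). Kept by a looser filter of 1 CPM in at least 4 libraries, it rose by 2.74 on the log2 scale (adjusted p = 0.00629), a rule under which 8.54% of 12875 genes rose. With 1 count each, WT replicates 2 and 4 lay below that filter. Thus sqlea passed it only with lf:YAP libraries, where it was higher. By DESeq2, where 6.51% of 14155 genes rose, its adjusted p was 0.00346. The paralog sqleb, looked up after the other values were seen, had 0 counts in every library. The approximate 95% upper limit from counting error, 3 counts, was 0.258 CPM over the lf:YAP libraries and 0.241 CPM over the WT libraries. These limits are relative to summed library totals without TMM scaling.

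**Figure D3:**
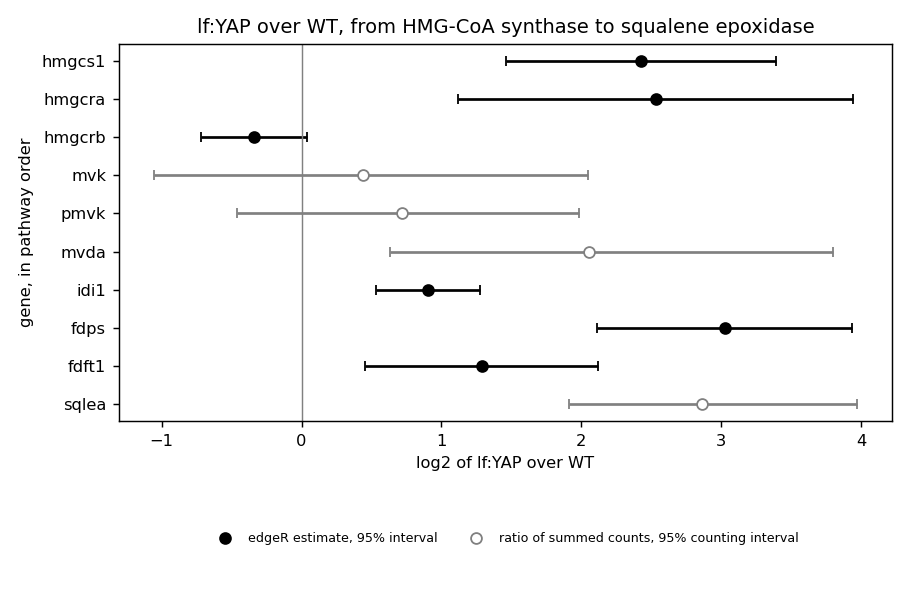
Log2 of lf:YAP over WT (horizontal axis) for the 10 genes in pathway order. Filled points are edgeR estimates with 95% intervals, and open points are ratios of summed counts with 95% counting intervals for the genes too rare to test. The intervals of hmgcrb, mvk and pmvk include 0. Counting intervals leave out variation between libraries, so they are not read like those of edgeR.

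In the authors' deposited table hmgcs1, hmgcra, idi1 and fdps had adjusted p-values under 0.05. In the authors' deposited table fdft1 had an adjusted p of 0.153, sqlea of 0.102 and mvda of 0.222. The deposited log2 fold change of hmgcrb was -0.28, in the authors' deposited table with an adjusted p of 0.358.

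Neighbouring enzymes of the chain were set against each other within each library. The log2 ratio of fdps over idi1 was -1.44, -0.94, -1.71 and -1.58 in lf:YAP replicates 1 to 4, against -2.97, -2.78, -5.53 and -3.43 in WT replicates 1 to 4, a difference of 2.26 with no overlap. The log2 ratio of fdft1 over fdps was -2.29, -1.40, -0.87 and -0.73 in lf:YAP replicates 1 to 4, against -0.55, 0.16, 3.06 and 0.14 in WT replicates 1 to 4, a difference of -2.03 with no overlap. Both values for WT replicate 3 rest on a single fdps count, and without that library the differences were 1.64 for fdps over idi1 and -1.24 for fdft1 over fdps. The log2 ratio of hmgcra over hmgcs1 averaged 1.92 ± 0.36 in lf:YAP and 1.67 ± 1.23 in WT (SD, n = 4 each), and the groups overlapped. Of the 9 pairs, 4 had no overlap and reached the smallest possible exact p of 0.0286: fdps over idi1, fdft1 over fdps, hmgcra over hmgcrb, and mvk over hmgcra. With 4 of 9 pairs at that value the adjusted p was 0.0643, so 0 passed. The smallest unadjusted p of the other pairs was 0.171.

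The coefficient of variation of hmgcs1 was 60.7% among lf:YAP libraries and 29.9% among WT libraries. Replicate 2 was the highest lf:YAP library for 5 of the 6 tested genes, with replicate 4 highest for hmgcrb. The order replicate 2, 4, 1, 3 from high to low was shared by 3 genes, hmgcs1, hmgcra and sqlea. For hmgcra the highest lf:YAP library had 4.52 times the lowest. The yap1 transcript had 631, 1012, 300 and 1304 CPM in lf:YAP replicates 1 to 4. The pair of libraries with the most yap1 also had the most hmgcs1, hmgcra, sqlea and mvda. They had the most hmgcrb as well, the paralog that did not rise. It was otherwise for idi1, fdps and mvk, which were lowest in replicate 4. For fdft1 replicate 3 stood above replicate 4, and for pmvk replicate 1 did. The TMM factors moved along with the first order, at 1.04, 1.28, 0.869 and 1.28 in lf:YAP replicates 1 to 4, and the lowest library in it, replicate 3, had the highest pancreas marker share. Endothelium markers followed the same order, with 0.0166%, 0.0228%, 0.00947% and 0.021% of counts in lf:YAP replicates 1 to 4. Biliary markers followed the order of yap1, with 0.375%, 0.471%, 0.254% and 0.686% in lf:YAP replicates 1 to 4. Their part in the spread was not tested. With 4 libraries no correlation was computed.

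Among WT libraries, replicate 1 had 2.01 times the WT mean of hmgcra and 1.47 times that of fdps, but 0.790 times that of hmgcs1. Both hmgcrb and idi1 varied little, with a highest-to-lowest ratio of 1.22 for hmgcrb and 1.28 for idi1 in WT.

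**Figure D4:**
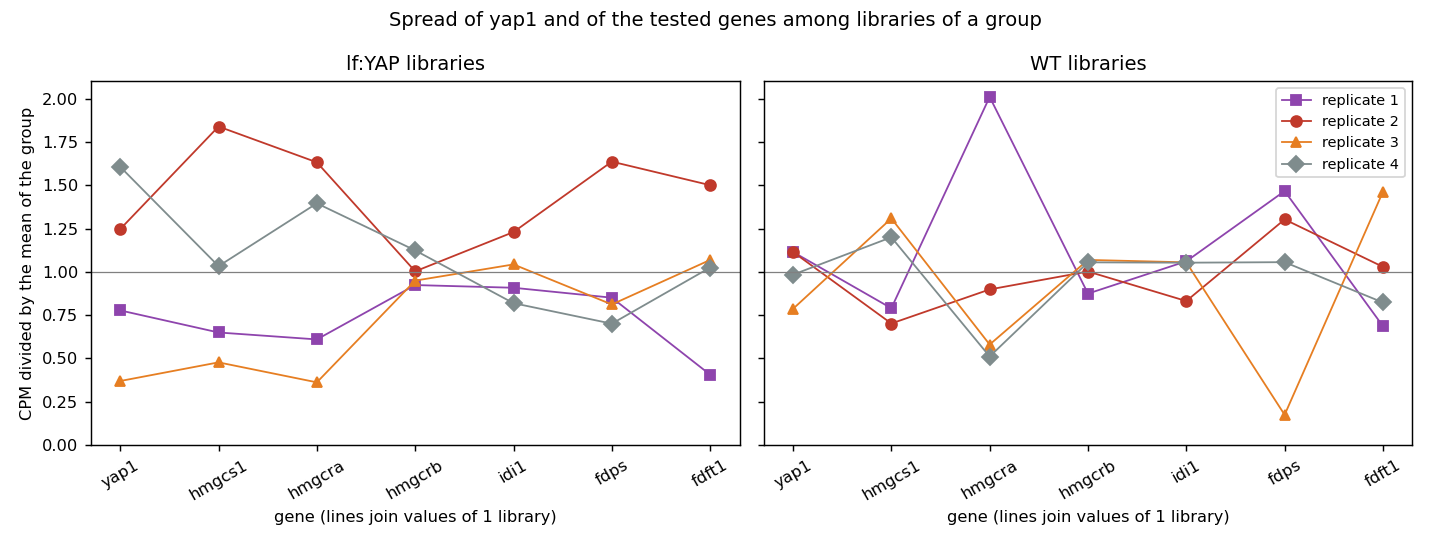
CPM of yap1 and of the 6 tested genes in each lf:YAP library (left) and WT library (right), divided by the mean of its group (vertical axis, linear from 0). Lines join the values of 1 library: lf:YAP replicate 2 lies above 1 for all genes, and WT replicate 1 reaches 2.01 for hmgcra.

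The genes around the pathway were taken from 5 lists, with 21.6% of all genes tested called in either direction. Of the 5 tested genes that supply acetyl-CoA or make acetoacetyl-CoA, 2 rose and 1 fell, with a median log2 fold change of -0.35. The citrate lyase gene aclya rose by 1.45 ± 0.20 (SE), and acat2, the cytosolic thiolase that precedes HMG-CoA synthase, by 1.43 ± 0.39 (adjusted p = 0.0196). Before TMM scaling acat2 was below the filter level of 3.44 CPM in every WT library. It thus entered the test through the lf:YAP libraries alone, where it was higher. Omitting lf:YAP replicate 2, or 1 of WT replicates 2, 3 and 4, ended the acat2 call, with adjusted p-values of at most 0.0618. In each of those 4 cases 1 gene of this list was called in place of the 3. The acat2 call was also lost by limma-voom (adjusted p = 0.0658) and without both libraries richest in pancreas markers (0.0684). The acetyl-CoA synthetase gene acss2 fell by 0.98 on the log2 scale (adjusted p = 0.0474). That call was lost under 15 of 18 settings, on leaving out each library among them. The gene acss2 passed the filter only with WT libraries, where it was higher.

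Downstream, 4 of the 7 tested genes from lanosterol to cholesterol rose and 1 fell, with a median of 1.23. Under the looser filter of 1 CPM in at least 4 libraries, 8 genes of this list were called in place of the 5. Across the table that filter gave 2119 of 12875 genes called. It also let in genes of this list that passed it only with lf:YAP libraries, where they were higher. The lanosterol demethylase gene cyp51 averaged 78.1 ± 20.7 CPM in lf:YAP and 11.1 ± 2.14 CPM in WT (SD, n = 4 each). The desaturase gene sc5d had a log2 fold change of 2.21 and the methylsterol oxidase gene msmo1 one of 1.23. These 3 genes passed under all 18 settings. The gene that fell, named to complete the count, was the sterol reductase gene tm7sf2 (-1.06, adjusted p = 0.0273). Its call was lost under 8 of 18 settings. Among these were omitting any of WT replicates 1 to 3 or of lf:YAP replicates 2 and 4 (adjusted p of at most 0.0827). The gene tm7sf2 passed the main filter only with WT libraries, where it was higher. The count and median of this list therefore rest in part on genes kept through the group where they were high.

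The branches that use farnesyl diphosphate for products other than sterols gave 1 riser and no fall among 9 tested genes, with a median of -0.13. Across all genes tested 11.1% rose, a share near that of this list. The riser was zmpste24, encoding a protease that processes farnesylated proteins (1.13 ± 0.28, SE; adjusted p = 0.0116). The geranylgeranyl diphosphate synthase gene ggps1, named after its value was seen, was at -0.13 on the log2 scale, its 95% interval running from -0.67 to 0.41. The farnesyltransferase subunit gene fnta had 0.59, and nus1, a subunit gene of the dolichol-forming prenyltransferase, had -0.44, neither past the threshold. The prenyltransferase subunit gene pggt1b had -0.44 (adjusted p = 0.174).

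In the SREBP system and sterol uptake, 4 of 13 tested genes rose and none fell, with a median of 0.22. These were the transcription factor genes srebf1 (0.70 ± 0.15, SE) and srebf2 (0.89 ± 0.23), insig1 (0.66 ± 0.18), whose product holds SREBP in the endoplasmic reticulum, and the lipoprotein receptor gene ldlrb (2.06 ± 0.43). Its paralog ldlra, named after its value was seen, had 0.31 (adjusted p = 0.22). The gene ldlrb had 2.29, 1.53, 2.44 and 5.49 CPM in WT replicates 1 to 4. It passed the filter only with lf:YAP libraries, where it was higher. Without WT replicate 2 the count was 2, with srebf2 at an adjusted p of 0.0598. Omitting WT replicate 1, or 1 of lf:YAP replicates 1 and 2, also ended the insig1 call (adjusted p of at most 0.0805), and omitting WT replicate 4 that of srebf2. Of 7 tested genes for the degradation of HMG-CoA reductase and squalene epoxidase, 1 rose and none fell, where 11.1% of all genes tested rose. The riser was the ubiquitin ligase gene rnf139 (0.81 ± 0.20, SE; adjusted p = 0.0116), while vcp (0.41), syvn1 (-0.48) and amfra (0.32) did not pass. With libraries scaled by total counts alone, 3 genes of that list were called. By that scaling 1541 of 8369 genes rose and 521 fell, with a median log2 fold change of 0.31 over all.

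**Figure D5:**
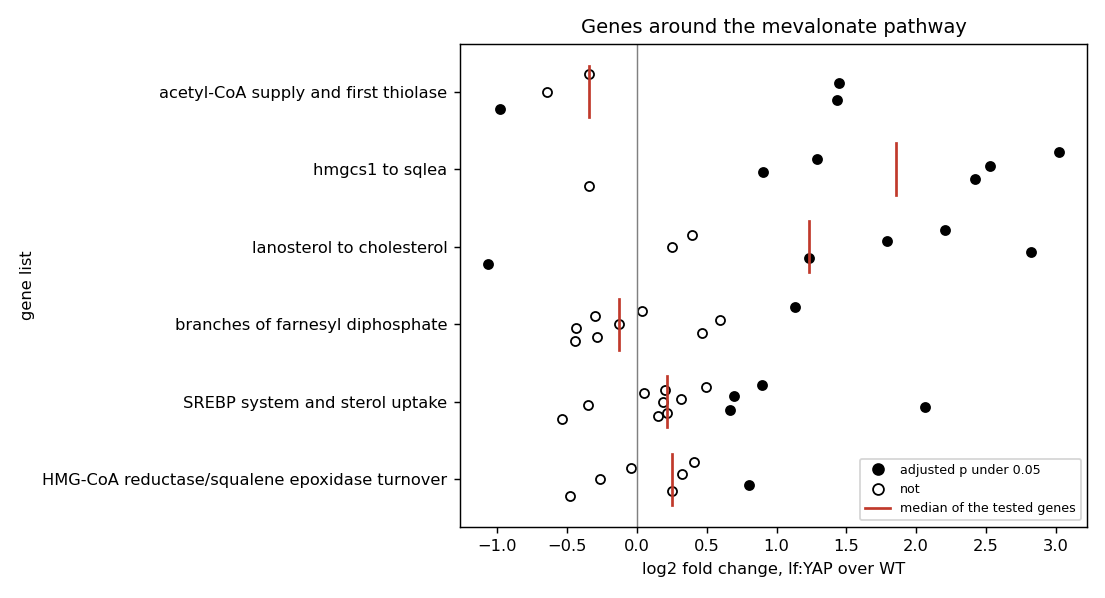
Log2 fold change (lf:YAP against WT, horizontal axis) for each tested gene of the pathway and of 5 surrounding lists. Filled points passed an adjusted p of 0.05 and open points did not. Red bars mark medians of the tested genes: 1.86 for those of the pathway and -0.13 for the branches of farnesyl diphosphate.

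To find genes with the most similar pattern, each gene was correlated over the 8 libraries with the mean standardised level of the 6 tested pathway genes. The 5 highest were rbbp9, a serine hydrolase gene (Pearson r = 0.98), the Arf GTPase regulator gene asap3 (0.98), the plasmanylethanolamine desaturase gene tmem189 (0.97), the carbohydrate-response factor gene mlxipl (0.97) and the FGF receptor-like gene fgfrl1a (0.97). As these values share libraries, depth and the difference between the groups, they are descriptions only, and 218 of 8369 genes tested had an r of at least 0.9.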

How the data were processed

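Per the labels' protocols, RNA from pooled livers went into a stranded total RNA library kit for small inputs and was sequenced as paired 75-base reads. The submitters' processing notes name the build danRer10 and the tools featureCounts 1.6.0, HISAT2 2.1.0, limma 3.40.6 and cutadapt 1.16, with no role or order. No annotation or strand setting is given in the sources used here, so reads of overlapping genes cannot be told apart. The authors deposited whole-number counts per gene and library, with CPM relative to the total of the column. The authors' deposited log2 fold changes, mean log2 expression, p-values and adjusted p-values were used for comparison only, and 1 further deposited column, other than these, holds 0 throughout.

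Of 35117 rows, 6518 without a gene name (0.657% to 2.55% of counts) were left out. The main test was that of edgeR 4.0.16 in R 4.3.3: filterByExpr by group, TMM factors, robust quasi-likelihood F-test, 2-sided, group as the only term, Benjamini-Hochberg adjustment over all genes tested, threshold 0.05. The SE is the log2 fold change over the square root of F, approximate, with 95% intervals from it. Counting intervals of summed counts are exact binomial. Ratios between genes used counts plus 0.5 and 2-sided exact permutation tests, adjusted over 9 pairs. The test was checked on simulated data. Alternatives used DESeq2 1.42.0, limma-voom (limma 3.58.1), other scalings and filters, a replicate block and the omission of libraries. For the surrounding lists these were added after seeing the data. Same-numbered libraries did not deviate together. The genes and lists were chosen with earlier results of these data known. The text names all 10 genes, yap1, up to 4 genes of each list with the smallest p, and the 5 genes most alike. Names beyond this rule are marked as such. Of the genes this rule selects, 1 is not reported here.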

Additional observations from a re-analysis of the deposited data

Results flagged for a closer look

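In groups of 4 libraries, 11 of 62 sets of values held a library far from the others, its gap to the nearest being above Dixon's 95% critical share of the range. For independent, normally distributed values chance gives about 1 in 20 such groups. The sets here include tied small counts and ratios that share genes, so that rate need not hold for them. Of the well-measured genes, fdps stood at 31.8 CPM in lf:YAP replicate 2, with 13.6 to 16.5 CPM in the other lf:YAP libraries. The idi1 level of WT replicate 2 was 22.1 CPM, with 28.0 to 28.2 CPM in the other WT libraries.

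The rare genes gave 4 more. The pmvk level was 0 CPM in lf:YAP replicate 3, with 1.73 to 1.79 CPM in the others. The mvda level was 0.359 CPM in lf:YAP replicate 1, with 2.13 to 2.29 CPM in the others. The mvk level was 1.53 CPM in WT replicate 1, with 0.275 to 0.407 CPM in the others. The log2 ratio of pmvk over mvk was 1.58 in WT replicate 3 and 0 in the other WT libraries, from 4 counts or fewer of each gene.

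The other 5 concern the libraries. Exocrine pancreas markers took 1.40% and intestine markers 0.0742% of the counts of lf:YAP replicate 3. Macrophage and leukocyte markers took 0.00338% in lf:YAP replicate 4. Skeletal muscle markers took 0.0606% in WT replicate 1, lower than in the other WT libraries, and WT replicate 4 was the deepest library with 3797709 counts.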

How the results depend on the processing

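On leaving out each library in turn, 3 to 6 of the 10 genes were called. Without lf:YAP replicate 4 the count was 3 of 6 tested, beside 1404 of 8573 genes across the table. Without lf:YAP replicate 3 it was 6 of 7 tested, sqlea among them, beside 2538 of 8995 genes. The gene sqlea reached the filter level in 3 lf:YAP and 0 WT libraries, so it entered that fit through lf:YAP alone. The omitted library was also the only lf:YAP library within the WT range of sqlea. The lowest count across the table was 1309 of 8603 genes, without lf:YAP replicate 2. The other settings gave 4 to 6 of the 10. The lowest was 4 of 6 tested by limma-voom, beside 1915 of 8369 genes across the table. The highest was 6 of 9 tested under the filter of 1 CPM in at least 4 libraries, beside 2119 of 12875 genes. The 6 tested pathway genes kept their direction under all 18 settings. With no filter 2855 of 22936 genes were called across the table. The replicate block gave 5 of 6 tested and 1685 of 8369 genes across the table. Same-numbered libraries had correlations of deviations between -0.05 and 0.04, so the numbers were not taken as pairs. A paired sign-flip test of the ratios passed for 0 of 9 pairs, its smallest possible p being 0.125. With total counts alone 1541 genes were higher and 521 lower, against 929 and 875 with TMM. The log2 ratio of pmvk over mvk, -0.14, turned to 0.0086 with a pseudocount of 1 and lay between -0.83 and 0.72 on leaving out a library, above 0 when lf:YAP or WT replicate 3 was omitted. That of hmgcra over hmgcs1, 0.24, lay between -0.10 and 0.74, below 0 when WT replicate 3 or 4 was omitted. The cause was not tested. Depth limits mvk, pmvk and mvda, with 5 to 24 counts over a group.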
